A study of Homo sapiens with 2 samples.

Results

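Integrin and laminin subunits were described in HCT116 cells, an epithelial line from a human colorectal carcinoma, after infection with an shRNA against RAP1. Members were chosen by gene symbol: the integrin alpha and beta subunits (ITGA and ITGB genes) and the laminin alpha, beta and gamma chains (LAMA, LAMB and LAMC genes). Of 38 symbols of this form in the RefSeq gene table, 35 had a probe set that carried only that symbol, 25 integrins and 10 laminins among 18132 such genes on the array. The others were not analysed here. Each member was represented by its brightest such probe set, the one with the highest mean log2 value. In the shNC group the cells received the lentivirus sh-negative-control, and in the shRAP1 group the lentivirus sh-RAP1-4#. Both infections were at a multiplicity of infection of 20 and RNA was taken at 72 h. Each group was 1 culture on 1 array, and the knockdown rested on a single shRNA in a single line. No difference could therefore be tested or checked in a replicate, and precision is limited by there being 1 array a group. All values are probe set intensities, and a difference is always the log2 value in shRAP1 less that in shNC.

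Integrins are cell surface receptors made of 1 alpha and 1 beta chain, which bind proteins of the extracellular matrix outside the cell and link through talin and kindlin to actin inside it. Laminins are secreted trimers of an alpha, a beta and a gamma chain that form the basement membrane sheet under an epithelium. In the gut, epithelial cells hold to laminin mainly through integrins with the alpha 3 or alpha 6 chain, and the pair of alpha 6 with beta 4 anchors them at hemidesmosomes. The small GTPases RAP1A and RAP1B are known regulators of integrin activity, whereas TERF2IP, also called RAP1, is a protein of telomeres.

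The labels did not say which RAP1 gene the shRNA addressed. The TERF2IP intensity was 1311 in shNC and 624 in shRAP1, or 47.6% of the control, on its only probe set. RAP1A stood at 88.0% and RAP1B at 93.3% of the control. The epithelial markers EPCAM, CDH1, KRT8, KRT18, KRT19 and CDX2 passed the floor, a level set at the median of all non-control values (78.0), while VIL1 and CDX1 did not. Of 8 leukocyte markers 3 passed it (CD68, HLA-DRA and the integrin ITGAX), with summed intensities of 530 in shNC and 591 in shRAP1 over the list. All 3 were higher in shRAP1, and HLA-DRA, an MHC class II chain, was at least 1.2-fold higher, with 210.0 and 258, a difference of 0.29. Over all genes past the floor, 53.2% were above 0 and 4.96% at least 1.2-fold higher. With 3 genes, neither count is read as a result about leukocyte markers. PTPRC, the common leukocyte antigen, was at 11.4 and 9.25. Of 10 fibroblast and endothelial markers 2 passed it (KDR and VWF), with summed intensities of 418 and 441. PECAM1, CDH5, COL1A1, COL1A2, COL3A1, PDGFRB, DCN and LUM lay below it. The brightest of these were COL1A1, at 60.9 in shNC and 69.8 in shRAP1, and PDGFRB, at 49.9 and 53.1.

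Of the 35 members, 20 passed the floor, 12 integrins and 8 laminins, and all 20 did so on both arrays. Differences among them were small, from −0.28 for ITGAV to 0.34 for ITGB4. The laminin-binding subunits ITGB4 and ITGA7 and the laminin chain LAMB1 were at least 1.2-fold higher in shRAP1, so 3 of 20 members passed this size upwards, against 4.96% of the 10437 genes past the floor. The integrin chain ITGAV was the 1 member at least 1.2-fold lower, against 3.58% of all genes. With differences centred on a trend with brightness, 377 genes passed this size upwards and 461 downwards, in place of 518 and 374. ITGA7 then fell short of it, which left 2 members higher and 1 lower. Without centring, the nearest members past the size of 0.26 on the log2 scale were ITGA7 at 0.26 and ITGAV at −0.28, and the nearest short of it were LAMA2 at −0.20 and ITGA3 at 0.17. No member reached 1.5-fold, a size that 0.211% of all genes passed upwards and 0.172% downwards.

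**Figure D1:**
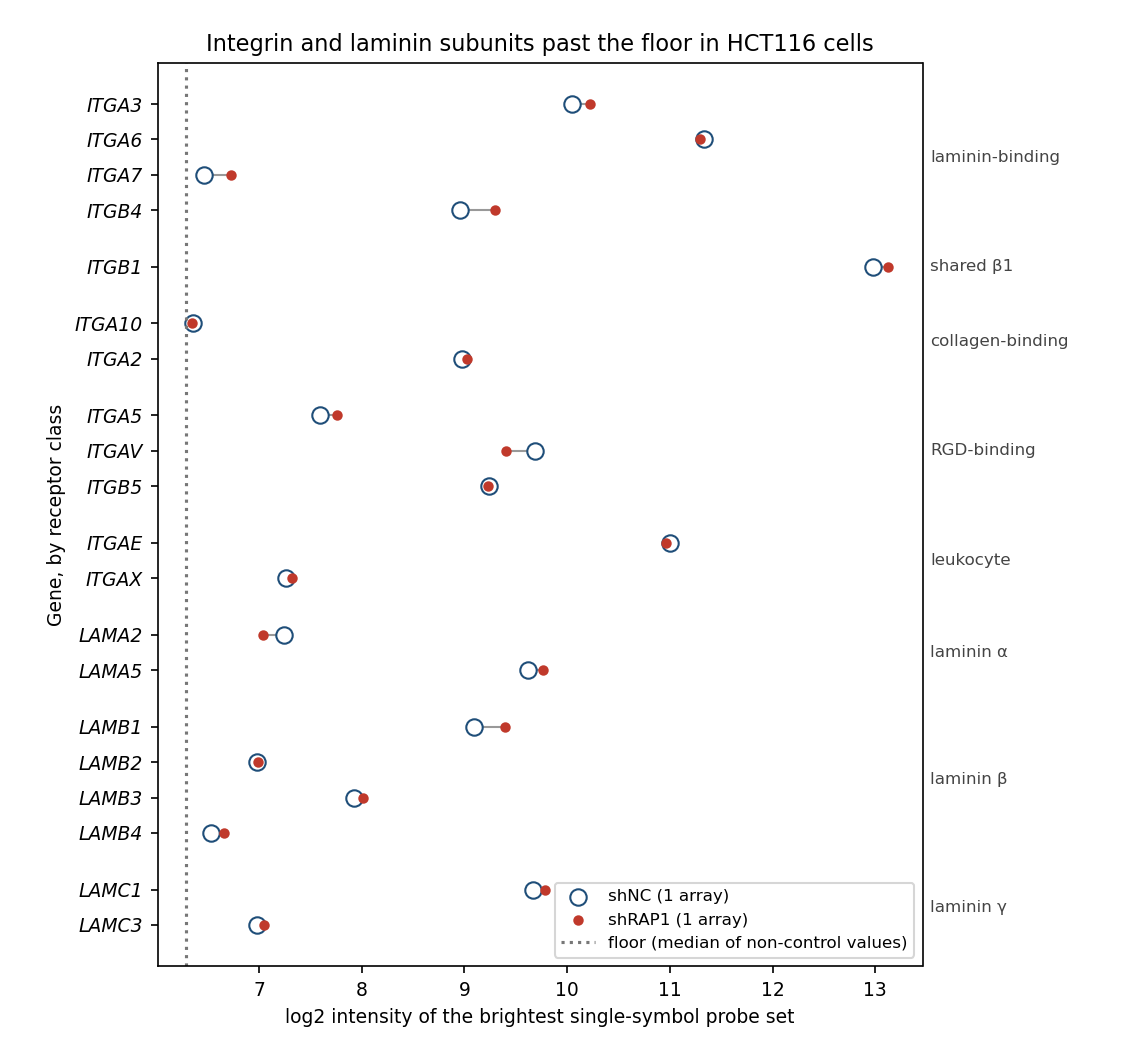
Log2 intensity (horizontal axis) of the 20 members past the floor, by receptor class, with an open ring for the shNC array, a filled point for the shRAP1 array and a dotted line at the floor. The widest gaps are those of ITGB4, LAMB1 and ITGA7, where shRAP1 lies to the right, and of ITGAV, where it lies to the left; positions of different genes are not comparable, since each probe set has its own response.

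The laminin-binding integrin subunits held the members with the largest positive differences among the integrins. ITGB4, the beta chain of hemidesmosomes (Entrez gene 3691), had an intensity of 495 in shNC and 628 in shRAP1, a difference of 0.34 or 1.27-fold. All 8 of its probe sets were higher in shRAP1, by 0.13 to 0.47 with a median of 0.33. The size was 2.46 times the local SD, here the SD of differences over the 500 genes closest to it in mean log2 value, which is a spread between genes and no experimental error. Of all genes past the floor, 1.95% were as far above 0 or farther.

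The alpha partner of ITGB4 gave a value near 0. ITGA6, which pairs with beta 4 or beta 1, had 2579.5 in shNC and 2515 in shRAP1, a difference of −0.037, and its 3 probe sets lay between −0.053 and 0.046. ITGA3, the other main laminin receptor chain of epithelia, had 1060.0 and 1192, a difference of 0.17, with 3 probe sets that were all higher, by 0.17 to 0.24. ITGA7, a laminin receptor chain best known from muscle, had 88.1 and 106 on its only probe set, a difference of 0.26. Its 2 values lay close above the floor, where the local SD was 0.19.

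ITGB1, the beta chain shared by the laminin, collagen and fibronectin receptors, had 8080.4 in shNC and 8913 in shRAP1, a difference of 0.14. All 4 of its probe sets past the floor were higher in shRAP1, by 0.041 to 0.36. Of its probe sets with names not ending in _s_at or _x_at, the mark of probes that can match other transcripts, the brightest gave 0.041. The other of these past the floor, with 642 in shNC and 826 in shRAP1, gave 0.36. The size of the ITGB1 difference therefore varied with the probe set, while its direction did not.

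Of the collagen-binding chains, 2 of 4 passed the floor. ITGA2, the collagen receptor chain of epithelia and platelets, had 505 in shNC and 523 in shRAP1, a difference of 0.050, and its dimmer probe set gave 0.30. ITGA10, a collagen receptor chain of cartilage, had 81.7 and 81.6, a difference of −0.0022 at the level of the floor. ITGA1 and ITGA11 lay below the floor on both arrays.

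Among the chains that bind the RGD sequence of fibronectin and vitronectin, ITGAV was lower and ITGA5 and ITGB5 differed less. ITGAV (Entrez gene 3685), which pairs with several beta chains, had 822 in shNC and 679 in shRAP1, a difference of −0.28 or 82.6% of the control. Its 4 probe sets past the floor were all lower in shRAP1, by −0.45 to −0.055. The size was 1.99 times the local SD, and 3.13% of all genes were as far below 0 or farther. With the probe sets named _s_at or _x_at left out, the ITGAV difference was −0.055, on the brightest one left. A dimmer one left, with 79.5 in shNC close to the floor and 67.9 in shRAP1 below it, gave −0.23. On the median of its probe sets past the floor, the ITGAV difference was −0.25. Under neither setting was any member 1.2-fold lower.

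The partners of ITGAV that could be followed gave other values. ITGB5, which pairs only with alpha V, had 606 in shNC and 599 in shRAP1, a difference of −0.015. ITGB8 and ITGB3 lay below the floor, and the 2 probe sets that carry ITGB6 with a second symbol, used for no gene, had intensities between 9.76 and 12.1. ITGA5, the alpha chain of the classical fibronectin receptor, had 193 and 216, a difference of 0.16, with 3 probe sets between 0.021 and 0.16. ITGA8 and ITGA2B, the platelet chain, lay below the floor.

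The leukocyte integrin chains were mostly dim, and 2 of 7 passed the floor. ITGAE, which pairs with ITGB7 to bind E-cadherin, had 2054 in shNC and 1992 in shRAP1 on its only probe set, a difference of −0.044. Its partner ITGB7 was below the floor, at 36.6 and 34.0. ITGAX, the alpha chain of a complement receptor, had 153 and 159.5 on a probe set ending in _x_at, a difference of 0.058, while its other 3 probe sets lay below the floor. ITGAL, ITGAM, ITGAD and their beta chain ITGB2 lay below the floor, as did ITGA4 and ITGA9, which bind cell surface and matrix ligands. The 13 integrins below the floor had intensities between 11.1 and 59.9.

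Laminin chains were higher in shRAP1 for 7 of 8 members past the floor, where 53.2% of all genes were above 0, with a median of 0.10 against 0.010 over all genes. The integrins had 7 of 12 higher and a median of 0.054. With the trend with brightness removed, the integrin median was 0.033, and 6 of 8 laminins were higher, as LAMB2 changed sign, with a median of 0.059. With a stricter floor (the 75th percentile of values), 4 of 8 integrins were higher with a median of 0.018, and 3 of 3 laminins with a median of 0.14. With no floor, 15 of 25 integrins were higher with a median of 0.029, and 7 of 10 laminins with a median of 0.076. Of the laminins that were higher, only LAMB1 and LAMA5 differed by more than the local SD. LAMB1 (Entrez gene 3912), the beta chain of the laminins of most basement membranes, had 547 in shNC and 674 in shRAP1, a difference of 0.30 or 1.23-fold. This was 2.10 times the local SD, and 3.07% of all genes were as far above 0 or farther. Its second probe set, with 82.3 and 82.0 close to the floor, gave −0.0051. The median over both was 0.15, short of 1.2-fold.

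LAMA5 and LAMC1, which can assemble with LAMB1, were also higher, by sizes that many genes reached. On their brightest probe sets, the sizes were 1.10 and 0.82 times the local SD. Of all genes past the floor, 18.2% and 23.3% were as far above 0 or farther. On the median of each gene's probe sets past the floor, LAMA5, LAMB1 and LAMC1 were at 0.14, 0.15 and 0.15. LAMA5, the alpha chain of the main adult epithelial laminins, had 788 in shNC and 870.4 in shRAP1, a difference of 0.14 on its 1 probe set past the floor. LAMC1, the gamma chain of most laminins, had 814 and 883, a difference of 0.12, with 4 probe sets past the floor that were all higher, by 0.087 to 0.26. These 3 chains form the laminin trimer of alpha 5, beta 1 and gamma 1, a ligand of integrins with alpha 3 or alpha 6.

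The other laminin chains showed differences of both signs. LAMB3, the beta chain of the laminin of hemidesmosomes, had 243 in shNC and 258 in shRAP1, a difference of 0.086 with its second probe set at 0.064. LAMB2 had 126 and 128, a difference of 0.019, and LAMC3 had 127 and 133, a difference of 0.065. LAMB4 had 92.9 and 101, a difference of 0.12, and its other 3 probe sets were below the floor. LAMA2, the alpha chain of muscle laminin, was the 1 laminin that was lower, with 152 and 132 and a difference of −0.20 on 1 probe set. LAMA1 and LAMA4 lay below the floor, between 10.5 and 40.0.

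**Figure D2:**
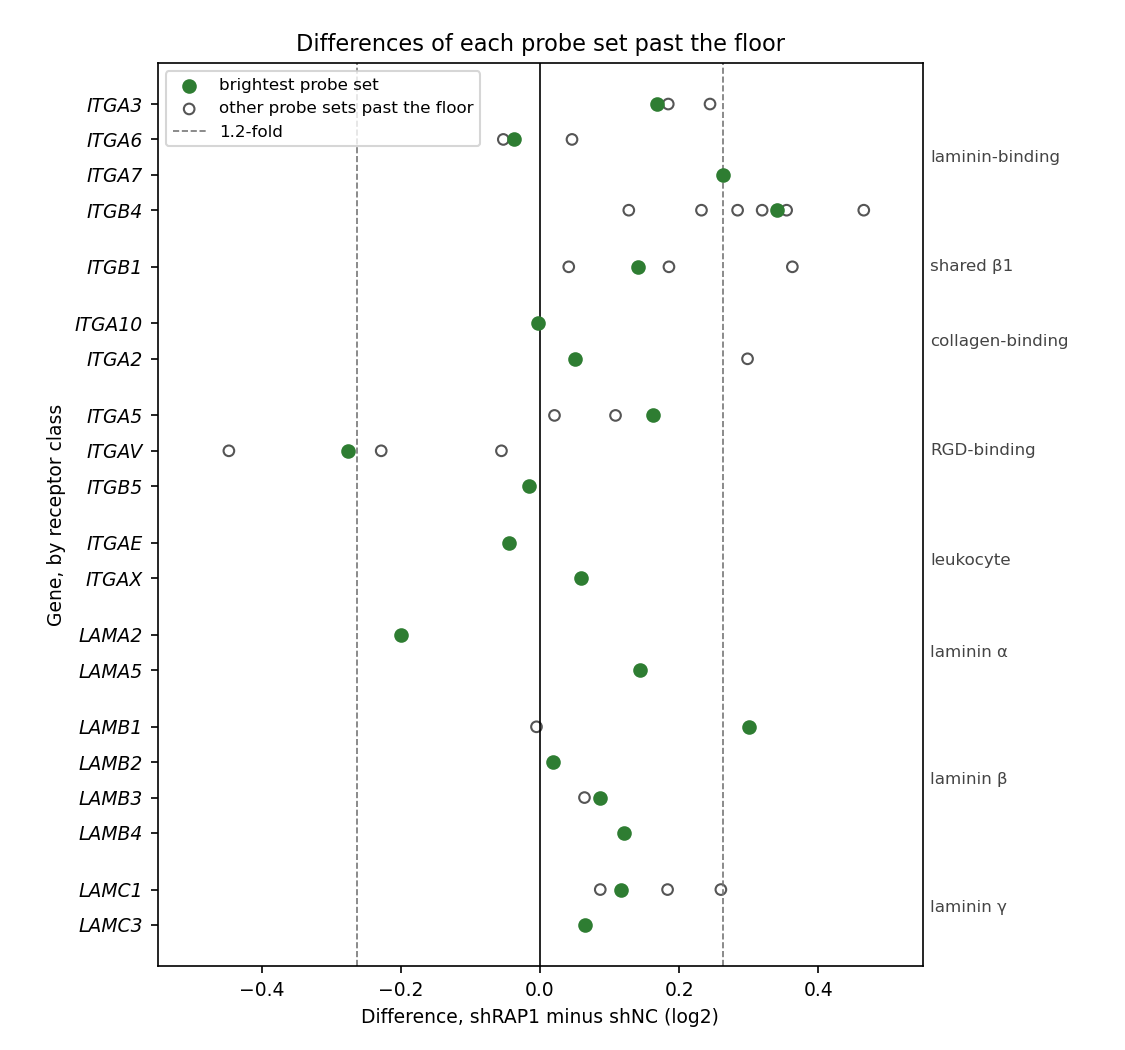
Difference between shRAP1 and shNC on the log2 scale (horizontal axis) for each of the 45 probe sets past the floor of the 20 members, by receptor class, with the brightest probe set filled, the others open and dashed lines at 1.2-fold. All 8 points of ITGB4 lie right of 0 and all 4 of ITGAV left of it, while the 2 of LAMB1 lie apart, at 0.30 and −0.0051.

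Probe sets of a member mostly shared their direction. More than 1 probe set passed the floor for 10 members, and 8 of these had all of them on the same side of 0, while ITGA6 and LAMB1 did not. Over all 6135 genes with such a pair, the gap between the differences of the 2 brightest probe sets had an SD of 0.135. For 4 of the 10 members the gap was wider than this SD: 0.31 for LAMB1, 0.25 for ITGA2, 0.22 for ITGAV and 0.141 for ITGA5. For ITGB4 it was 0.12. The matching shares over all genes were not computed, so neither count is read as particular to these members. The other 10 members rested on 1 probe set past the floor.

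**Figure D3:**
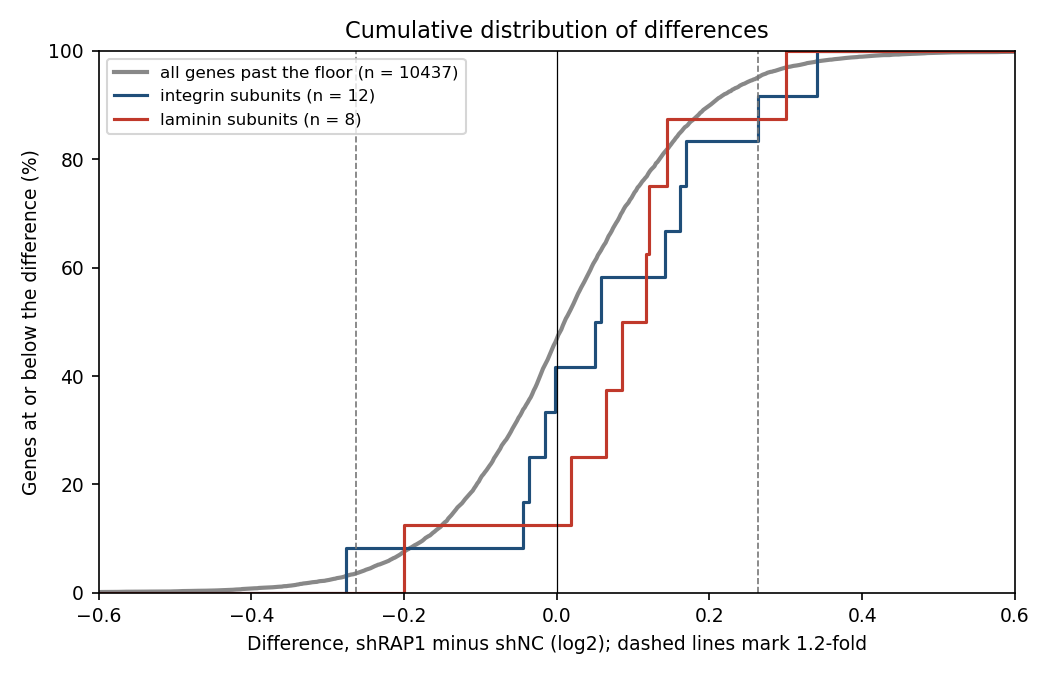
Share of genes (vertical axis, percent) at or below each difference between shRAP1 and shNC (horizontal axis, log2) for all 10437 genes past the floor in grey, the 12 integrins in blue and the 8 laminins in red, with dashed lines at 1.2-fold. The laminin steps from 0.019 to 0.12 lie right of the grey curve, and single members make each step.

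Sequences upstream of 5 member genes are given because they stand for both directions: the 3 chains of the alpha 5, beta 1, gamma 1 laminin and ITGB1, all higher in shRAP1, and ITGAV, which was lower. Each is the 250 bases before the RefSeq start of the gene (GRCh38.p14), 5′ to 3′ on the gene's strand, with capitals for the GC box GGGCGG on either strand, a motif bound by SP1 family factors. LAMA5 lies at chr20:62367313-62367562 (minus strand), LAMB1 at chr7:108003162-108003411 (minus), LAMC1 at chr1:183023170-183023419 (plus), ITGB1 at chr10:32958231-32958480 (minus) and ITGAV at chr2:186589806-186590055 (plus). For ITGB1 and ITGAV, which have 2 starts each, the window of the start farthest upstream is shown.
LAMA5: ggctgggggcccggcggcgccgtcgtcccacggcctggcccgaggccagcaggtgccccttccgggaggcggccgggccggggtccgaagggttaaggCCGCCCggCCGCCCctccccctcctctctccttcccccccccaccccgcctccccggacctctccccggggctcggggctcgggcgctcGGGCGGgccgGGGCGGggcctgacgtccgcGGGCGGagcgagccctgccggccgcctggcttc
LAMB1: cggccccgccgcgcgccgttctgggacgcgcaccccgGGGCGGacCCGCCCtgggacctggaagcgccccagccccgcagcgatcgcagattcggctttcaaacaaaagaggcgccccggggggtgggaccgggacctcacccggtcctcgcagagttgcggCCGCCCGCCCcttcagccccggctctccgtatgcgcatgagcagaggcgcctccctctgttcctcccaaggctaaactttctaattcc
LAMC1: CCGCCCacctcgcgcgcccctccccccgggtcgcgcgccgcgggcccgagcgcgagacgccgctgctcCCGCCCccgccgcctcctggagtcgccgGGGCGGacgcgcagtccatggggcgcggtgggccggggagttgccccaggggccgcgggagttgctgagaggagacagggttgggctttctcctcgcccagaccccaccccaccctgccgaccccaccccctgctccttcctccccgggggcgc
ITGB1: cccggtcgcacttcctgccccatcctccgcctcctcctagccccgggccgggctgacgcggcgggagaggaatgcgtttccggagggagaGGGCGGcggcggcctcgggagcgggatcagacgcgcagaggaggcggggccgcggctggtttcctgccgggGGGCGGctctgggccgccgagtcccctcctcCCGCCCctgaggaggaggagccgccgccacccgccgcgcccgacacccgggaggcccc
ITGAV: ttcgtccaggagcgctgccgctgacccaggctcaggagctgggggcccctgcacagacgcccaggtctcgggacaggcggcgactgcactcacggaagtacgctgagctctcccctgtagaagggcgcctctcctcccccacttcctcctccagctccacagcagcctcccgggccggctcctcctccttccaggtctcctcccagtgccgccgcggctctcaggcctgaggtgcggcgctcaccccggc

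The windows of LAMA5, LAMB1, LAMC1 and ITGB1 held 5, 4, 3 and 3 GC boxes, counting overlapping matches, and the ITGAV window held 0. The motif is common, being found in 42.6% of all 35116 such windows and in 16 of 31 windows of the 24 members that had one. Of 15 members past the floor with a window, 10 held it. These were ITGA2, ITGA5, ITGB1, LAMA5, LAMB1, LAMB2, LAMB3 and LAMC1, which were higher, and ITGA6 and ITGB5, which were slightly lower. The windows shown had a GC content of 70.4% to 82.8% (70.8% for ITGAV), against a median of 58% over all windows. Whether the motif goes with direction was not tested. The telomeric repeat TTAGGG, to which the complex that holds TERF2IP binds at chromosome ends, was found on either strand in 7.94% of all windows and in 2 members, ITGA5 and ITGAE. The AP-1 motif TGANTCA was found in 6.57% of all windows and in 1 member, LAMB3. None of the 5 windows shown held either of these letters. Of the members past the floor, ITGA3, ITGA7, ITGAX, ITGB4 and LAMC3 had no window in the table.

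Genes that work with integrins and laminins were followed in 5 lists. Of all genes past the floor, 53.2% were above 0, 4.96% were at least 1.2-fold higher and 3.58% at least 1.2-fold lower. Of 11 basement membrane partners of laminin, 4 passed the floor and 3 were higher, with a median of 0.22. COL4A5, a collagen IV chain, had 177 in shNC and 212 in shRAP1, a difference of 0.26 with its second probe set at 0.23, just short of 1.2-fold. HSPG2, the heparan sulphate proteoglycan perlecan, had 308 and 361, a difference of 0.23. AGRN, the proteoglycan agrin, had 2203 and 2527, a difference of 0.20. COL4A6, another collagen IV chain, was at −0.051, and the nidogens NID1 and NID2, which tie laminin to collagen IV, lay below the floor. None of the 4 reached 1.2-fold, which is near the background for so few genes.

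Of 17 other integrin ligands, 7 passed the floor, and 3 were at least 1.2-fold higher and 1 lower, against 4.96% and 3.58% of all genes. Of these 4, LTBP1 and CCN2 passed the floor only on the array where they were high, so the count is not read as a result of the list. FN1, fibronectin, the ligand of the alpha 5 and alpha V chains, had 104 in shNC and 167 in shRAP1, a difference of 0.69, and its 4 probe sets past the floor lay between 0.41 and 0.69. CCN1, a matricellular protein that binds alpha V and alpha 6 integrins, had 254 and 323, a difference of 0.35, with its other probe set at 0.25. LTBP1, which holds latent TGF-beta in the matrix, was at 0.38, and its shNC value of 69.3 did not reach the floor. CCN2, a relative of CCN1, was at −0.68 to an shRAP1 value of 62.8 below the floor. The sizes of the LTBP1 and CCN2 differences are uncertain.

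Of 10 hemidesmosome genes and laminin co-receptors, 5 passed the floor, 1 higher and 4 lower, with a median of −0.026. None was past 1.2-fold, which is near the background, given 4.96% of all genes upwards and 3.58% downwards. PLEC, the plectin that links ITGB4 to keratins, had 1590 in shNC and 1760 in shRAP1, a difference of 0.15. DST, a related linker protein, was at −0.12 with 5 probe sets between −0.19 and 0.21. The syndecans SDC4 and SDC1 were at −0.090 and −0.026. The ITGB4 difference was larger in size than those of ITGA6 and the 5 measured genes of this list. The ITGB4 difference was also the largest in size of all members past the floor, so this ordering was close to fixed. It is not read as a result. BCAM, a gene of this list that lay below the floor, had 70.4 in shNC and 54.5 in shRAP1, a difference of −0.37.

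Of 13 regulators of integrin activity, 9 passed the floor, 4 higher and 5 lower, with a median of −0.057. TLN2, a talin, was the 1 gene past 1.2-fold, with 83.9 in shNC and 101 in shRAP1 and a difference of 0.26, and 1 of 9 is near the background, given 4.96% of all genes upwards and 3.58% downwards. TLN1, the main talin of epithelia, gave −0.21, and 0.042 on its second probe set. The kindlin FERMT1 was at 0.17 with 3 probe sets between 0.17 and 0.20, and RAP1A at −0.18 with 3 between −0.23 and −0.18. Of 21 focal adhesion adaptors and kinases, 17 passed the floor, 12 higher and 5 lower, with a median of 0.088, where 53.2% of all genes were above 0. The 1 gene of this list past 1.2-fold was PARVB, and 1 of 17 is also near the background. The parvins differed in sign, with PARVB at 0.33, its shNC value short of the floor, and PARVA at −0.23 with 4 probe sets between −0.26 and −0.16. TNS2, a tensin, was at −0.23 and LIMS2, a PINCH protein, at 0.21, each with 1 value below the floor.

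**Figure D4:**
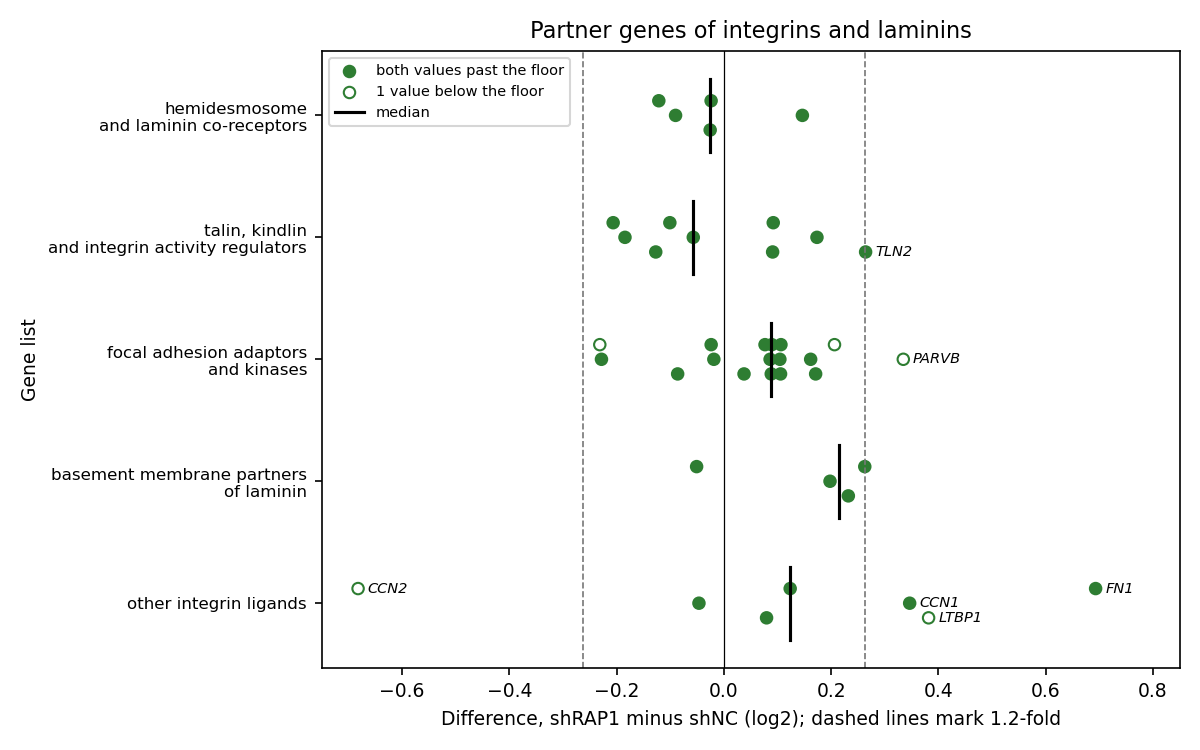
Difference between shRAP1 and shNC on the log2 scale (horizontal axis) for each gene past the floor in 5 lists of partner genes, with open points where 1 value lies below the floor, a bar at each list's median and dashed lines at 1.2-fold. FN1 at 0.69 and CCN2 at −0.68 lie farthest out, and the medians run from −0.057 to 0.22.

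Array background probe sets differed by GC class. Those of class 16 or more were higher in shRAP1 in 10 of 10 cases with a median of 0.11, and those of lower class in 3 of 13 with a median of −0.025. The part of probe GC content in the member differences was not tested. Because quantile normalisation gives both arrays the same distribution of probe values before they are summarised, a difference shared by all genes could not be seen. The summarised non-control values had medians of 77.0 in shNC and 78.9 in shRAP1.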

How the data were processed

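Gene expression was measured on 1 array per group. The deposited values are probe set intensities on the linear scale, as read from the values, which reach 25726 on both arrays. RMA, which corrects background, normalises quantiles and summarises probes, is the tool named in the submitters' processing notes, and its version is not given in the sources used here. Of 49293 non-control probe sets, 44988 carried 1 symbol in the platform annotation, 1832 several and 2473 none. Genes were taken only from the first kind. Log2 was taken with no pseudocount.

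The floor required that at least 1 of the 2 values of a gene's brightest probe set be at or above 78.0, the median over all non-control values. Named are all members past the floor, up to 4 genes of largest size per partner list, and the RAP1 genes. The members, lists and the size of 1.2-fold were chosen with earlier results of these data known. Alternatives changed the floor, the probe sets, the size and the centring (lowess, span 0.3). The computation was tested on simulated data. Values came from Python 3.11.15, numpy 2.4.6, pandas 2.3.3 and statsmodels 0.14.6, and plots from matplotlib 3.10.9. Sequences came from RefSeq.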

Additional observations from a re-analysis of the deposited data

How the results depend on the processing

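With 1 array per group no array could be left out, so the size of any difference between cultures is unknown. No paired analysis was possible because each group held 1 array. The count of members at least 1.2-fold higher (3) was between 2 and 3 when the floor, the probe sets or the centring changed. It was 3 of 35 with no floor, against 6.81% of all genes, and 2 of 11 with the stricter floor, against 3.22%. The median of a gene's probe sets gave 2 of 20, against 4.32%, and lowess centring 2 of 20, against 3.61%. Without probe sets named _x_at or _s_at it was 3 of 19, against 5.09%. At 1.3-fold and 1.5-fold it was 0 of 20, against 1.33% and 0.211%. For members at least 1.2-fold lower (1), the count was 0 of 20 with the median of a gene's probe sets, against 3.41% of all genes. It was 0 of 19 with those named _x_at or _s_at left out, against 4.06%. At 1.3-fold and 1.5-fold it was 0 of 20, against 0.968% and 0.172%. Counts of 0 are near these shares for so few members. The medians kept their sign, from 0.018 to 0.084 for integrins and from 0.059 to 0.14 for laminins. A change of floor leaves a member's difference as it is. Of the 35 member differences that another setting could alter, 31 stayed within 0.096 of the reported value, the SD per probe set between the 2 brightest probe sets of a gene. The 4 others were ITGA2 (0.17) and LAMB1 (0.15) with the median of a gene's probe sets, and ITGAV (−0.055) and ITGB1 (0.041) with those named _x_at or _s_at left out. None of the 20 lowess-centred values, part of the 35, moved past 0.096, so all 4 came from a change of probe sets. LAMB1 and ITGAV were among the 4 members past 1.2-fold. LAMB2 alone changed sign, with lowess centring. Members near the floor of 78.0 are the least certain.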
